A study of Arabidopsis thaliana with 16 samples.

Results

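Aquaporins were taken as every gene of the deposited table whose description holds the word aquaporin. The rule found 22 of 27655 genes. By name they comprise 5 plasma membrane intrinsic proteins (PIP), 8 tonoplast intrinsic proteins (TIP), 5 NOD26-like intrinsic proteins (NIP) and 1 small basic intrinsic protein (SIP), plus 3 genes with no class in their description. All 5 PIP members belong to the PIP2 subclass. A further 16 genes that the table names as PIP, TIP, NIP or SIP have descriptions without the word, PIP1 genes among them, and they are kept apart here as family genes outside the rule.

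Aquaporins are membrane channels that let water, and in some cases small neutral solutes, cross a membrane down its gradient. In plants the PIPs sit mainly in the plasma membrane, the TIPs in the vacuolar membrane (the tonoplast), and the SIPs in the endoplasmic reticulum, while several NIPs carry solutes such as boric acid, glycerol or organic acids. The vacuole of a dry seed cell is filled with storage protein and carries the seed-type TIP3 channels, which give way to other TIPs as reserves are used and the vacuoles fuse into a large central one.

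RNA came from whole germinating seeds of Arabidopsis thaliana, wild type of the strain Col-0, kept at 4 °C for 3 days and then at 22 °C in constant light on diluted Murashige and Skoog (MS) medium. At 24 hours after imbibition, seeds received liquid diluted MS medium with 5 µM abscisic acid (ABA, the hormone that holds back germination), with 60 mM glucose, or with 5 µM ABA plus 60 mM glucose. Treatment ran for 6 hours, and the seeds of all groups are labelled as 30 hours after imbibition. The control group is labelled only as control, and the labels name no osmotic control for the sugar. Each of the 4 groups has 4 libraries, described in the labels as biological replicates.

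Library totals ran from 9360552 to 17794702 estimated counts, and 17083 genes passed the filter on low counts. All 16 libraries had the profile of a germinating seed. The summed level of ICL, MLS and PCK1, genes of oil use after germination, was 30744 to 34043 CPM (counts scaled to library size) with ABA, 32827 to 34806 with glucose, 32349 to 33510.0 with both and 32185 to 34121 in controls. The summed level of a pair of pollen markers was at most 0.202 CPM in any library. Control replicate 1 stood apart in low genes: 18 genes there had at least 20 counts and at least 4 times the level of every other library, against 0 to 3 such genes in each of the other libraries. ABA replicate 3 agreed least with its own group. Its log2 CPM correlated with the other ABA libraries at 0.979 to 0.983, against 0.987 to 0.993 for all other pairs within a group.

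Of the 22 members, 9 passed the filter and were tested: PIP2-5, PIP2-7, PIP2-8, TIP1-1, TIP3-1, TIP4-1, NIP1-2, NIP2-1 and SIP1-2. The other 13 were not tested, and 6 of these had no count in any library. In such bulk samples, fewer cells that express a gene and less of its RNA per cell cannot be told apart.

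The promoters of 3 genes are shown first. TIP3-1 had the largest fitted fold change with ABA of the tested members, TIP3-2 is the other seed-type TIP of the table and lies outside the rule, and PIP2-7 was the most abundant member. Each line gives the 250 bases before the gene start on the coding strand, 5′ to 3′, from RefSeq's TAIR10.1 annotation. Capitals mark matches on either strand to ACGTG, the core of the ABA-responsive element, and to CATGCA, the core of the RY element that is read by B3 factors of the seed maturation programme.
TIP3-1 (AT1G73190, chr1:27521694-27521943, plus strand): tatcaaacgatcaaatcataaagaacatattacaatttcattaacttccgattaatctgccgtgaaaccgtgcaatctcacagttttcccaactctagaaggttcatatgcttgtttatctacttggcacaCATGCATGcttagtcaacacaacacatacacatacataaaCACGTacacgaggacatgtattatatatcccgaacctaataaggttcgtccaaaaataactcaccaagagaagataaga
TIP3-2 (AT1G17810, chr1:6129775-6130024, plus strand): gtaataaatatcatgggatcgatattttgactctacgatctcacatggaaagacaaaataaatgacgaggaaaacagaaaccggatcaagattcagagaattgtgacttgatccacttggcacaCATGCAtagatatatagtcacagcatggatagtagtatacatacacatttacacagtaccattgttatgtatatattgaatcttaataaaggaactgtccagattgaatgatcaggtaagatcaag
PIP2-7 (AT4G35100, chr4:16708111-16708360, plus strand): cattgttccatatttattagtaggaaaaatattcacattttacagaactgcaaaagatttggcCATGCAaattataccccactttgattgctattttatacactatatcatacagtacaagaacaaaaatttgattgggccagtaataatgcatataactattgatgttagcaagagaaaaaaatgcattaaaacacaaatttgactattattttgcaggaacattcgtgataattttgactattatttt

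The TIP3-1 window holds 1 match to ACGTG, whose first base lies 79 bases before the gene start. It also holds the run CATGCATG, which contains 2 overlapping matches to CATGCA. The windows of TIP3-2 and PIP2-7 each hold 1 match to CATGCA, 126 and 187 bases before the start, and no match to ACGTG. TIP3-1 and TIP3-2 share the 17-base run acttggcacaCATGCAt, which begins 129 bases before the TIP3-1 start and 136 bases before the TIP3-2 start and occurs in 2 of 27438 promoters. That run was picked as the longest that these 2 windows share, so the 2 promoters are their own and the count is not a test. Over all members, 3 of 22 promoters held ACGTG, which was found in 22.92% of 27438 promoters. CATGCA was found in 5 of 22 member promoters and in 8.434% of all promoters. These matches describe the letters only, and binding was not measured.

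Levels of different members were compared on the deposited TPM scale, which is corrected for transcript length. In control seeds PIP2-7, a plasma membrane water channel, stood highest at 380 ± 6.5 TPM (SD, n = 4). NIP1-2, a NOD26-like channel, followed at 46.5 ± 3.7 TPM, then PIP2-8 at 19.95 ± 1.7 TPM and SIP1-2 at 13.4 ± 1.4 TPM. The ranges of these 4 genes over the control libraries did not overlap. PIP2-5 at 5.09 ± 0.35 TPM and TIP3-1 at 5.06 ± 1.7 TPM were not separated from each other. TIP1-1 at 2.64 ± 1.6 TPM and NIP2-1 at 2.48 ± 0.80 TPM were not separated either, and TIP1-1 also overlapped PIP2-5 and TIP3-1 through 1 high library. NIP2-1 overlapped TIP3-1 as well, whose lowest control library was at 2.53 TPM, while all other members were listed at 1.07 TPM or less on average.

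**Figure D1:**
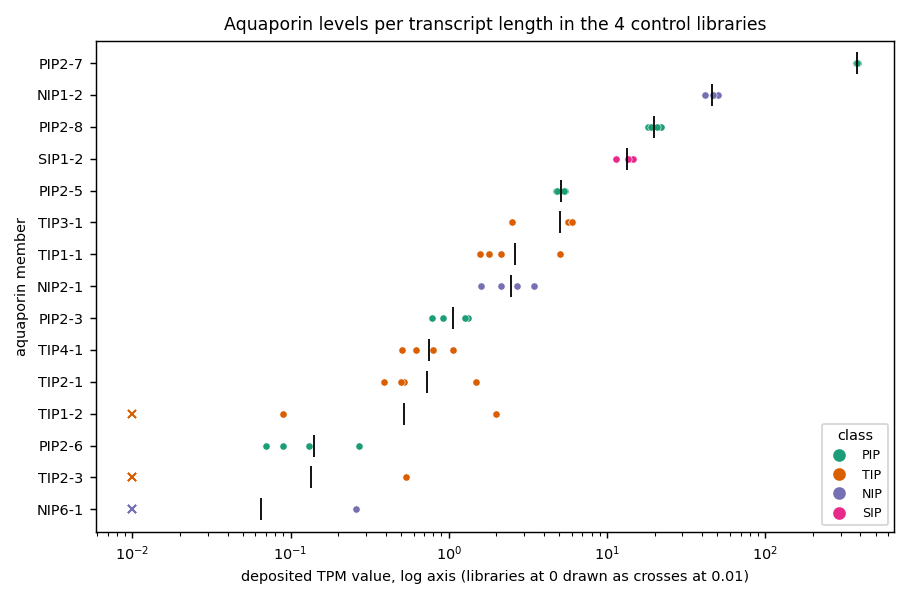
Deposited TPM (log axis) of the aquaporin members in the 4 control libraries, 1 point per library, coloured by class. PIP2-7 lies alone at the top, and the next 3 genes, NIP1-2, PIP2-8 and SIP1-2, form separate steps below it.

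The makeup of the members' summed TPM differed between groups. The shares below cover the members only and leave out the family genes outside the rule. Among those genes, PIP1-2 averaged 181 ± 8.7 TPM in controls, PIP1-3 61.2 ± 2.7 TPM and SIP1-1 47.9 ± 3.3 TPM (SD, n = 4). PIP2-7 made up 65.0% of the members' summed TPM with ABA, 79.3% with glucose, 67.9% with both and 79.4% in controls. TIP3-1 made up 14.5% with ABA, 0.485% with glucose, 11.7% with both and 1.06% in controls. By raw counts, the 22 members together took 0.0420% ± 0.0021 of a library with ABA, 0.0376% ± 0.00049 with glucose, 0.0412% ± 0.0011 with both and 0.0468% ± 0.00062 in controls (SD, n = 4 each). The lowest control library, at 0.0460%, lay above the highest library of every treated group on this scale. On the summed TPM column the ABA group overlapped the controls, with its highest library at 0.0465% and the lowest control at 0.0461%. Within the members' share of counts, TIP members held 0.00540% with ABA, against 0.000843% in controls, and PIP members held 0.0301% with ABA, against 0.0400% in controls. With ABA the TIP total was mostly TIP3-1, whose mean was 53.2 CPM, against 4.23 CPM in controls. Every other TIP member averaged 2.34 CPM or less in both groups, and TIP1-1 was lower with ABA. Most of the PIP total was PIP2-7, at 282 CPM with ABA and 369 CPM in controls.

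A gene is called changed here at an adjusted p under 0.05 in edgeR's quasi-likelihood test, with adjustment over all 17083 genes tested. Against controls, ABA raised 2 of the 9 tested members, TIP3-1 and NIP1-2, where 16.1% of all tested genes were called higher. ABA lowered 4 of 9, PIP2-7, PIP2-8, SIP1-2 and TIP1-1, where 18% of all tested genes were called lower. The median log2 fold change with ABA was -0.39 over the tested members and -1.2e-05 over all tested genes.

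Glucose, a sugar whose signalling is tied to that of ABA in seedlings, lowered 4 of the 9 tested members against controls: PIP2-7, TIP3-1, NIP1-2 and SIP1-2. Of all tested genes, 7.49% were called lower with glucose. It raised 0 of 9 members, where 3.85% of all genes were called higher. In this comparison 7 of 9 members had an unadjusted edgeR p under 0.05, against 7 of 9 with ABA and 5 of 9 with both compounds. The share of all tested genes at that unadjusted level was not counted for any comparison, so these counts and those below have no background beside them. The medians were -0.33 over the members and -0.01 over all genes on the log2 scale.

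With both compounds, 2 of 9 members were higher than in controls, TIP3-1 and TIP4-1, and 3 of 9 were lower, PIP2-7, SIP1-2 and TIP1-1. The shares over all tested genes were 11.2% higher and 14.1% lower. Against ABA alone, ABA plus glucose raised 1 of 9 members, PIP2-8 (1.16% of all genes), and lowered 0 of 9 (3.24% of all genes), with 4 of 9 at an unadjusted edgeR p under 0.05. Against glucose alone, ABA plus glucose raised 2 of 9, TIP3-1 and NIP1-2 (5.82% of all genes), and lowered 0 of 9 (5.95% of all genes), with 3 of 9 at an unadjusted p under 0.05. The comparisons of each treatment with controls share the same 4 control libraries.

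**Figure D2:**
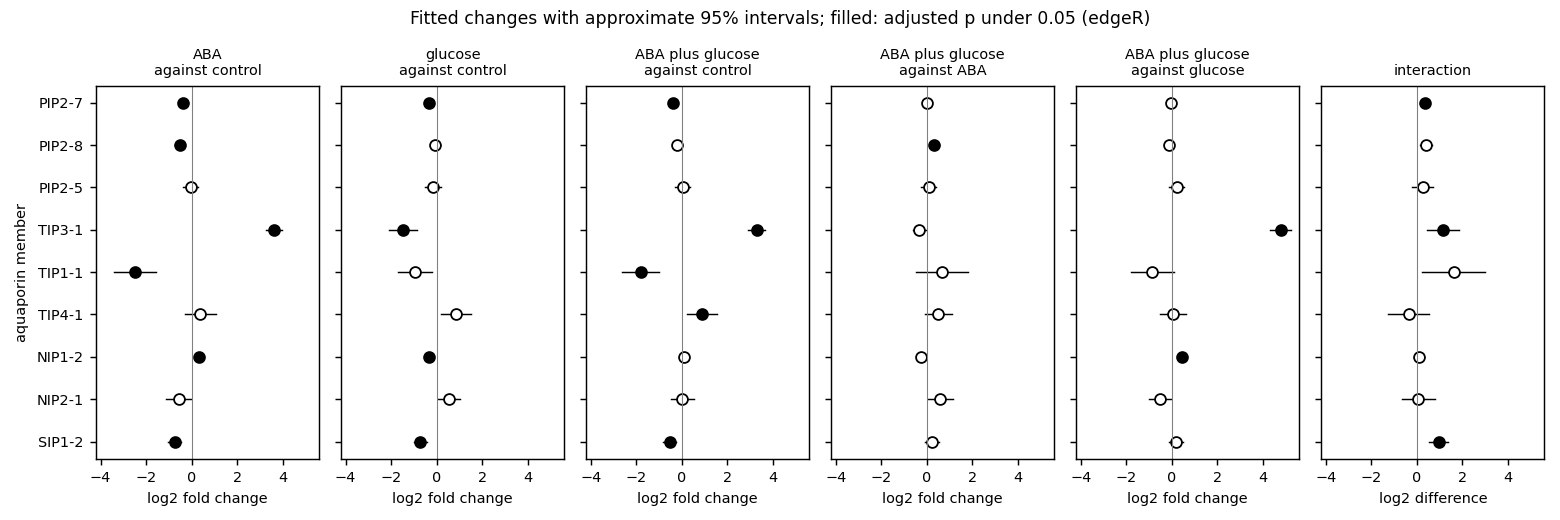
Fitted log2 fold changes of the 9 tested members in the 5 pairwise comparisons, and the log2 interaction, with approximate 95% intervals. Filled points have an edgeR adjusted p under 0.05. TIP3-1 lies far to the right in the 3 comparisons that add ABA, and PIP2-7 and SIP1-2 lie left of 0 in every treatment against controls.

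TIP3-1 (AT1G73190, chr1:27521944-27523332, plus strand), the alpha-type tonoplast channel of protein storage vacuoles, changed most with ABA. Its level was 60.8, 54.5, 39.3 and 58.1 CPM in the ABA libraries, against 4.78, 4.99, 5.03 and 2.11 CPM in the control libraries. The lowest ABA library was well above the highest control library, so the groups did not overlap. The fitted difference was a 12.3-fold rise (log2 3.62 ± 0.18, SE; adjusted p = 1.3e-13).

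In the glucose libraries TIP3-1 stood at 1.46, 1.68, 1.55 and 1.52 CPM, below every control library. Its log2 fold change with glucose was -1.48 ± 0.30 (adjusted p = 0.0024). Control replicate 4 was the low library of its group, and without it the value was -1.65 (adjusted p = 0.00047). The glucose libraries held at most 20.1 estimated counts of TIP3-1, against up to 67.9 in controls.

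Adding glucose to ABA gave no called difference from ABA alone for TIP3-1. The ABA plus glucose libraries held 53.4, 35.6, 44.4 and 37.9 CPM, and overlapped the ABA libraries given above. The log2 difference between ABA plus glucose and ABA was -0.33 (95% interval -0.60 to -0.05; adjusted p = 0.21). ABA replicate 3 was the low ABA library, and without it the difference was -0.44 (adjusted p = 0.013). Against glucose alone, ABA plus glucose raised TIP3-1 27.4-fold (log2 4.77 ± 0.22; adjusted p = 7.4e-14).

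**Figure D3:**
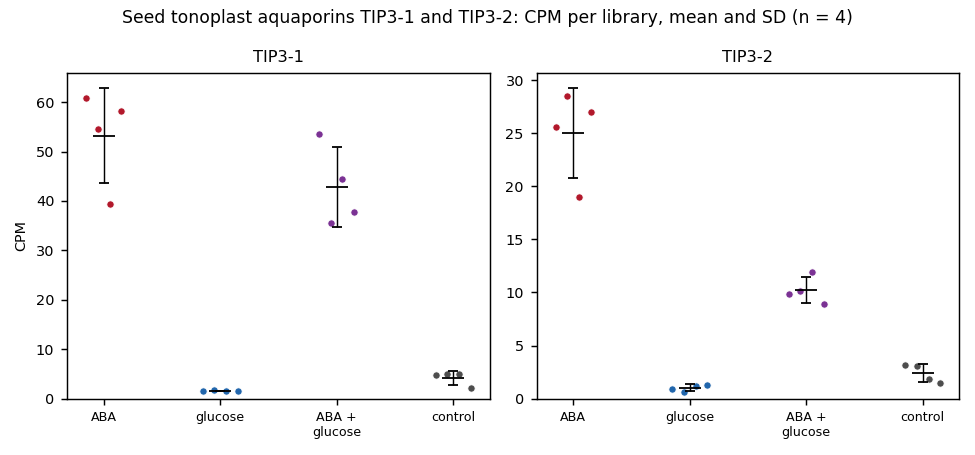
CPM of TIP3-1 and TIP3-2 in each of the 16 libraries, with the mean and SD of each group (n = 4). Both genes are highest with ABA and lowest with glucose, and the ABA plus glucose points of TIP3-2 lie below its ABA points while those of TIP3-1 overlap.

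TIP3-2 (AT1G17810, chr1:6130025-6131627, plus strand), the beta-type seed tonoplast channel outside the rule, had 25.6, 28.5, 19.0 and 27.0 CPM with ABA, against 3.21, 3.08, 1.85 and 1.48 CPM in controls. Its log2 fold change was 3.35 ± 0.17 with ABA (adjusted p = 4.5e-13) and -1.25 ± 0.31 with glucose (adjusted p = 0.010). With ABA plus glucose TIP3-2 stood at 9.89, 10.2, 11.9 and 8.91 CPM, below every ABA library. That difference was -1.30 ± 0.14 on the log2 scale (adjusted p = 1.7e-06). The gap between TIP3-1 and TIP3-2 in this comparison was not tested. A non-coding RNA gene without deposited counts, AT1G05333, overlaps TIP3-2 on the opposite strand by 564 bases, and its part in the TIP3-2 values was not tested.

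Some storage and oil body transcripts were also higher with ABA. The summed level of CRA1, CRU2, CRU3, SESA1 and OLEO1, which encode seed storage proteins and an oil body protein, was 2117 to 2339 CPM with ABA, 184 to 212 CPM with glucose, 1630.1 to 1702 CPM with both and 166 to 220.3 CPM in controls. ABA raised 3 of these 5 markers, CRA1, CRU3 and OLEO1, and the log2 fold changes of CRU2 (-0.08) and SESA1 (0.14) were not called. Glucose raised 1, CRA1, and lowered 2, CRU3 and OLEO1, and the summed level with glucose overlapped that of controls. None of the 5 was at 0 in every library. Endosperm and root markers were read beside them. Among 4 endosperm markers, ABA raised MAN7, and their sum was 1135 to 1549.8 CPM with ABA, against 1078 to 1279.5 CPM in controls. The top of the ABA range came from 1 library in which EPR1 reached 653 CPM (mean 325 ± 219 with ABA, 204 ± 47 in controls). EXPA2 averaged 873 CPM with ABA and 936 CPM in controls. Neither EPR1 nor EXPA2 was called, and NAC25, with at most 2 counts in a library, was not tested. Among 4 root meristem markers, ABA lowered PLT1 (mean 5.33 against 7.25 CPM in controls) and PLT2 (3.34 against 5.47 CPM). The sum of the 4 was 45.8 to 61.0 CPM with ABA, against 43.7 to 56.6 CPM in controls. That sum was mostly SCR, which averaged 42.6 CPM with ABA and 38.9 CPM in controls and was not called. WOX5, with at most 7 counts in a library, was not tested. The part of these cell types in the aquaporin results was not tested. The TIP3-1 gene overlaps AT1G73200 on the opposite strand by 290 bases, and AT1G73200 had a log2 fold change of -0.01 with ABA (adjusted p = 0.95). The use of strand in the counting is not given in the sources used here, and TIP3-1 had non-whole estimated counts in 14 of 16 libraries.

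TIP1-1 (AT2G36830, chr2:15445294-15446621, plus strand), the gamma-type channel of the large vacuole of vegetative cells, ran the other way. Its level was 0.343, 0.461, 0.541 and 0.392 CPM with ABA, against 4.48, 1.58, 1.41 and 1.90 CPM in controls. All ABA libraries lay below all controls, and control replicate 1 was far above the other controls. The log2 fold change with ABA was -2.48 ± 0.44 (adjusted p = 0.00013), and -1.91 without control replicate 1 (adjusted p = 0.00065). The ABA libraries held only 5 or 6 counts each of this gene.

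With ABA plus glucose TIP1-1 stood at 0.624, 1.10, 0.441 and 0.540 CPM, again below every control. That change was -1.81 ± 0.40 on the log2 scale (adjusted p = 0.0015), and -1.25 without control replicate 1 (adjusted p = 0.013). In glucose the libraries held 2.14, 0.971, 0.774 and 1.01 CPM. Glucose replicate 1 overlapped the controls, and the difference did not pass the threshold (log2 -0.95, 95% interval -1.71 to -0.20; adjusted p = 0.095). Leaving out 1 library moved it widely, to -1.37 without glucose replicate 1 (adjusted p = 0.029) and to -0.39 without control replicate 1 (adjusted p = 0.53).

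TIP4-1 (AT2G25810), another tonoplast channel, was the third tested TIP and was low in every library. It averaged 1.21 ± 0.36 CPM with ABA plus glucose and 0.625 ± 0.20 CPM in controls (SD, n = 4 each). The groups overlapped, and the log2 change of 0.89 ± 0.31 just passed the threshold (adjusted p = 0.038). Its mean was 0.847 CPM with ABA and 1.18 CPM with glucose, and neither difference from controls was called (adjusted p = 0.40 with ABA and 0.086 with glucose). The call with both compounds was lost when any 1 of 6 libraries was left out.

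The other 5 TIPs were barely detected. TIP1-2, a close relative of TIP1-1, had 25 counts in control replicate 1 (1.87 CPM) and at most 1 count in any other library. TIP2-3 had 6 counts in control replicate 1 and none elsewhere. TIP2-1, the delta-type channel, reached 1.27 CPM in control replicate 1, against 0.333 to 0.444 CPM in the other 3 controls. These genes were thus high in the same library that raised the TIP1-1 control mean. TIP5-1, known from pollen, had 1 count in 1 library, and TIP1-3, also known from pollen, had none.

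**Figure D4:**
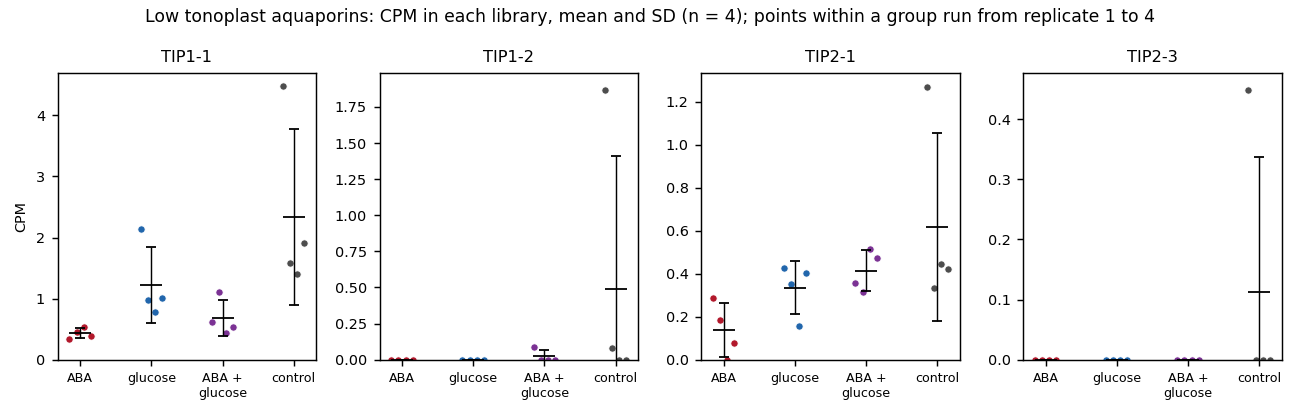
CPM of low tonoplast channels in each library, with the mean and SD of each group (n = 4). Control replicate 1 is the high control point for TIP1-1 (4.48 CPM), TIP1-2 (1.87 CPM) and TIP2-1 (1.27 CPM), and ABA libraries of TIP1-1 lie at 0.541 CPM or less.

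PIP2-7 (AT4G35100, chr4:16708361-16710407, plus strand), the main plasma membrane channel here, fell moderately under all 3 treatments. It stood at 267, 306, 280.2 and 275 CPM with ABA, against 372, 361, 370.1 and 373 CPM in controls. The glucose libraries held 289, 288, 296 and 301 CPM, and the ABA plus glucose libraries held 281, 276, 294 and 287 CPM. No treated library reached the lowest control.

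The log2 fold change of PIP2-7 was -0.39 ± 0.05 with ABA (adjusted p = 3.7e-06), -0.33 ± 0.05 with glucose (adjusted p = 0.00021) and -0.38 ± 0.05 with both (adjusted p = 7.9e-06). The second compound moved it little. ABA plus glucose differed from ABA by 0.01 (95% interval -0.10 to 0.12) and from glucose by -0.04 (95% interval -0.15 to 0.07). Neither difference passed the threshold (adjusted p = 0.95 and 0.71).

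PIP2-8 (AT2G16850), a close homologue of PIP2-7, averaged 15.04 ± 1.9 CPM with ABA, 20.9 ± 2.2 CPM with glucose, 19.1 ± 0.26 CPM with both and 21.8 ± 1.9 CPM in controls. It fell with ABA by 0.52 ± 0.09 on the log2 scale (adjusted p = 0.00014), and every ABA library lay below every control. Its difference with glucose was -0.06 (95% interval -0.25 to 0.13; adjusted p = 0.74). With both compounds it was -0.19 (adjusted p = 0.14), and it was called in 0 of the 16 fits that left out 1 library (lowest adjusted p = 0.072). It was -0.23 without control replicate 1 and ABA replicate 3 together (adjusted p = 0.030), a fit added after values were seen. ABA plus glucose raised it over ABA by 0.33 ± 0.09 (adjusted p = 0.046), a call that did not survive leaving out any of 11 of the 16 libraries.

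PIP2-5 (AT3G54820) was steady, at 6.67 ± 1.9 CPM with ABA, 6.17 ± 1.3 with glucose, 7.12 ± 0.75 with both and 6.90 ± 0.50 in controls. No comparison of it was called, and its log2 difference with ABA was -0.04 (95% interval -0.38 to 0.29). PIP2-3, first described as a desiccation-responsive gene, was not tested, with at most 15.5 estimated counts in a library. Its transcript is 90.7% identical to that of PIP2-2 over 988 bases, so reads of the pair may be split between them. PIP2-6 had at most 5 counts in a library.

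**Figure D5:**
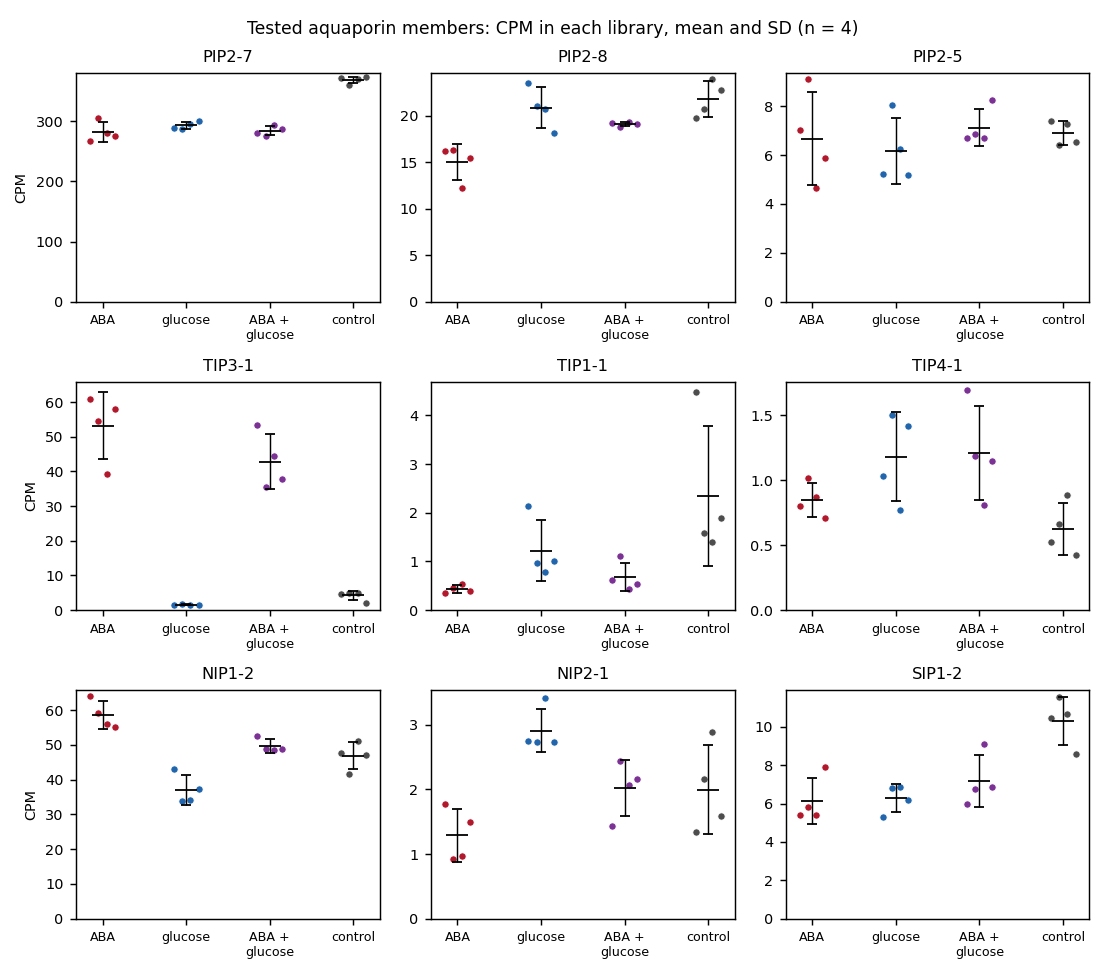
CPM of the 9 tested aquaporins in each library, with the mean and SD of each group (n = 4). PIP2-7 and SIP1-2 have lower means in all 3 treatments than in controls, NIP1-2 is highest with ABA and lowest with glucose, and PIP2-5 has overlapping libraries in all 4 groups.

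NIP1-2 (AT4G18910, chr4:10366044-10368510, plus strand), a channel reported to carry aluminium malate in roots, moved in opposite directions with the hormone and the sugar. It stood at 64.1, 59.3, 55.9 and 55.2 CPM with ABA, against 47.7, 41.7, 51.0 and 47.0 CPM in controls. The groups did not overlap, and the log2 fold change was 0.32 ± 0.08 (adjusted p = 0.0025). With glucose it stood at 43.1, 33.7, 34.1 and 37.2 CPM. Glucose replicate 1 exceeded the lowest control, and the change was -0.34 ± 0.08 (adjusted p = 0.0079).

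The ABA plus glucose libraries held 52.6, 48.7, 48.6 and 48.9 CPM of NIP1-2, between the ABA and the glucose libraries and overlapping the controls. The log2 difference from controls was 0.08 (95% interval -0.08 to 0.25; adjusted p = 0.49). It was 0.42 ± 0.08 over glucose alone (adjusted p = 0.00060). Against ABA alone it was -0.24 (95% interval -0.40 to -0.08; adjusted p = 0.090), and -0.26 without ABA replicate 3 (adjusted p = 0.048).

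NIP2-1 (AT2G34390), a lactic acid channel induced by low oxygen, averaged 1.29 ± 0.41 CPM with ABA, 2.90 ± 0.33 with glucose, 2.02 ± 0.43 with both and 1.99 ± 0.69 in controls. None of its comparisons was called, with adjusted p = 0.10 for ABA and 0.15 for glucose against controls. The ABA value was -0.57 on the log2 scale with all libraries, and leaving out each library in turn gave -0.79 to -0.32 (adjusted p = 0.040 to 0.41). It was -0.73 without control replicate 1 and passed the threshold in 2 of these 16 fits, without control replicate 1 or ABA replicate 1. A non-coding RNA gene without deposited counts, AT2G08660, overlaps NIP2-1 on the opposite strand by 1432 bases, and its part in the NIP2-1 values was not tested. AT2G29870, an unclassed member with no count in any library, is 97.5% identical to the NIP2-1 transcript over 489 bases. NIP6-1, a boric acid channel of nodes, had 3 counts, all in control replicate 1. NIP3-1 and the pollen gene NIP4-1 had no count in any library, nor had the unclassed AT1G52180 and AT2G16835. The NIP3-1 transcript is 97.4% identical to that of AT2G21020 over 229 bases. A count of 0 allows up to 3 counts, or 0.169 to 0.320 CPM in libraries of these sizes, counting error only.

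SIP1-2 (AT5G18290, chr5:6055028-6058368, minus strand), a channel of the endoplasmic reticulum, was lower under every treatment. It stood at 5.43, 5.81, 5.41 and 7.92 CPM with ABA, against 10.5, 11.6, 10.7 and 8.56 CPM in controls. The glucose libraries held 5.31, 6.80, 6.89 and 6.18 CPM, and the ABA plus glucose libraries held 5.97, 6.78, 9.12 and 6.88 CPM. Neither single treatment overlapped the controls, and 1 library with both compounds exceeded the lowest control.

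The log2 fold change of SIP1-2 was -0.75 ± 0.14 with ABA (adjusted p = 0.00026), -0.72 ± 0.14 with glucose (adjusted p = 0.0022) and -0.52 ± 0.14 with both (adjusted p = 0.0073). SIP1-2 overlaps AT5G18300 on the opposite strand by 444 bases. AT5G18300 had a log2 fold change of -0.22 with ABA (adjusted p = 0.64) and -0.85 with glucose (adjusted p = 0.13), and its part in the SIP1-2 values was not tested.

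The interaction asks whether the glucose effect with ABA differs from the glucose effect without it. It was called for 3 of the 9 tested members, all with a positive difference, where 3.23% of all tested genes had a positive and 2.07% a negative one. For PIP2-7 the glucose effect was 0.01 with ABA and -0.33 without, a difference of 0.34 ± 0.07 on the log2 scale (adjusted p = 0.0077). For SIP1-2 it was 0.23 with ABA and -0.72 without, a difference of 0.95 ± 0.21 (adjusted p = 0.0086). For TIP3-1 it was -0.33 with ABA and -1.48 without, a difference of 1.16 ± 0.33 (adjusted p = 0.046). The TIP3-1 call was also lost on leaving out any of 11 of the 16 libraries.

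PIP2-7 and SIP1-2 had alike patterns in this respect: each compound alone lowered them, and both together lowered them by no more than the stronger single treatment did. The interaction of NIP1-2 was 0.10 (95% interval -0.13 to 0.33; adjusted p = 0.68). That of PIP2-8 was 0.39 (95% interval 0.12 to 0.66; adjusted p = 0.088). The remaining tested members were not called either.

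The 16 family genes outside the rule give the rest of the family. Of these, 12 were tested, and ABA lowered 8 and raised 2, where 18% of all tested genes were called lower and 16.1% higher. For ABA the median over the 12 was -0.48 on the log2 scale, against -1.2e-05 over all tested genes. Glucose lowered 5 and raised 0, where 7.49% of all genes were lower and 3.85% higher, with medians of -0.29 over the 12 and -0.01 over all genes. Among the plasma membrane channels, PIP1-3 changed by -0.60 with ABA and -0.50 with glucose, and PIP2-1 by -0.87 with ABA and -0.58 with glucose on the log2 scale. PIP1-5 was higher with ABA, by 0.52 (adjusted p = 0.022), and PIP1-4 was not called with ABA (-0.13; adjusted p = 0.26). NIP1-1 changed by -1.14 with ABA (adjusted p = 4.6e-08), where NIP1-2 rose. The interaction was called for 3 of the 12, NIP5-1, PIP1-3 and PIP2-1, all with a positive difference, where 3.23% of all tested genes had a positive and 2.07% a negative one.

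Genes known to act on aquaporin proteins were listed apart from the channels, and all 13 were tested. ABA raised 3 and lowered 2, glucose raised 2 and lowered 2, and both together raised 2 and lowered 1 against controls. With ABA the shares over all tested genes were 16.1% higher and 18% lower, with glucose 3.85% and 7.49%, and with both 11.2% and 14.1%, so that the ABA counts of this list lie near the background. TSPO, an ABA-induced membrane protein that sends PIP2-7 protein for degradation, stood at 308 ± 28 CPM with ABA, 13.2 ± 3.5 with glucose, 128 ± 14 with both and 15.97 ± 2.4 in controls. Its log2 fold change with ABA was 4.26 (adjusted p = 3.7e-17), and ABA plus glucose was 1.26 below ABA on that scale. The RMA ubiquitin ligases, a family that acts on PIP2 proteins, differed among themselves. The log2 fold change with ABA was -0.64 for RMA2 (adjusted p = 1.4e-06), 0.60 for RMA3 (adjusted p = 0.0066) and -0.01 for RMA1 (adjusted p = 0.94).

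Proton pumps set the membrane gradients that accompany solute and water uptake, and all 9 listed were tested. ABA raised 2 and lowered 2, glucose raised 2 and lowered 0, and both together raised 1 and lowered 1 against controls. The ABA counts lie near the shares over all tested genes, 16.1% higher and 18% lower. Those shares were 3.85% higher and 7.49% lower with glucose, and 11.2% higher and 14.1% lower with both. AHA2, a plasma membrane pump, averaged 224 ± 8.7 CPM with ABA, 444 ± 19 with glucose, 269 ± 6.6 with both and 472 ± 38 in controls, a log2 change of -1.07 with ABA (adjusted p = 2.2e-12). AVP1, the tonoplast pyrophosphatase, changed by -0.38 with ABA (adjusted p = 0.0041). The pumps that rose with ABA were AHA11 of the plasma membrane, by 0.45 (adjusted p = 0.00012), and VHA-a2, a subunit of the tonoplast proton pump, by 0.27 (adjusted p = 0.025).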

How the data were processed

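RNA was sequenced in paired ends from 16 wild-type libraries, 4 per group, per the labels' protocols. The authors deposited estimated counts per gene, whose heading calls them raw although 4057 genes hold decimals, and a column headed TPM, per the file headers. The deposited TPM column was treated as a signal that the authors had scaled in a further way, not stated, since it does not sum to a fixed total, and served for levels between genes. The submitters' processing notes name Trimmomatic 0.38, kallisto 0.44.0 and sleuth, with no role or order. The genome build, annotation and use of strand are not given in the sources used here. A further 16 columns of other samples were not used.

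Counts were rounded, where raw counts had been planned for, and tested with edgeR 4.0.16 (limma 3.58.1, R 4.3.3): TMM scaling, filterByExpr with a minimum count of 10, 1 quasi-likelihood fit of 4 group means to 16 libraries, and Benjamini-Hochberg adjustment over 17083 genes. The common biological coefficient of variation was 7.88%. CPM use TMM-scaled library sizes. Standard errors and 95% intervals are approximate, from the fitted change and its F statistic. The pipeline was run on simulated data, with the same biological spread for every gene and no deviating library. That run therefore does not show how the calls behave with libraries such as ABA replicate 3 or control replicate 1. The intervals include the spread between replicates, while zero-count limits (3 counts) cover counting error only.

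The members and lists were chosen with earlier results of these data known. Values in every library were given for the member of each class with the highest mean TPM, every member called with an absolute log2 fold change of at least 1 in a pairwise comparison, and every member called in the interaction. The values of TIP3-2, the family genes outside the rule, the genes that overlap members and the fit without control replicate 1 and ABA replicate 3 were added after values were seen.

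Groups and replicate numbers came from the labels, which give no sequencing batch. The numbers did not pair the libraries: the deviations of 24 same-numbered pairs correlated at -0.15 to 0.11, with 2 pairs over 0.1. Replicates of a group differed by more than sampling noise: the chi-square per gene between 2 of them ran from 1.77 to 22.3. The highest values, 19.7 to 22.3, were those of ABA replicate 3 against the other ABA libraries. The next highest was 8.28, between control replicates 1 and 2. Alternatives were DESeq2 1.42.0, other filters, the replicate block, robust fitting, fits of the compared groups alone, limma on log2(TPM + 0.5) and leaving out each library. Promoters came from RefSeq TAIR10.1, matched by locus tag for 22 of 22 members.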

Additional observations from a re-analysis of the deposited data

Results flagged for a closer look

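Of 48 sets of 4 libraries, each a member in a group, 9 had a library far from the other 3 by Dixon's test at the 95% level. Chance flags about 1 in 20 sets of normally spread values. A set was examined only if a library in it held more than 3 counts. The control sets of TIP1-2 and TIP2-3 entered only through control replicate 1, so their flags were fixed in advance and that rate does not hold for them. Flags that fall in the same library are also not separate from each other. In control replicate 1, 4 low tonoplast channels were high: TIP1-1 at 4.48 CPM, TIP1-2 at 1.87 CPM, TIP2-1 at 1.27 CPM and TIP2-3 at 0.448 CPM. TIP3-1 was low in control replicate 4, at 2.11 CPM. SIP1-2 was high in ABA replicate 4, at 7.92 CPM. With ABA plus glucose, NIP1-2 was high in replicate 1, at 52.6 CPM, and PIP2-5 in replicate 4, at 8.23 CPM. NIP2-1 was high in glucose replicate 3, at 3.40 CPM.

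For 3 of the 9 tested members edgeR's interaction test called a glucose effect that differed with ABA. Of all tested genes, 3.23% had a positive and 2.07% a negative interaction. The TIP3-1 call, 1 of the 3, was lost on leaving out any of 11 of the 16 libraries. The log2 difference was 0.34 for PIP2-7, 0.95 for SIP1-2 and 1.16 for TIP3-1. The causes of these differences were not tested.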

How the results depend on the processing

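Of 21 called changes of members, 18 were called in every alternative that tested the gene, other than leaving out a library. Likewise 18 were called in every fit that left out 1 library, and none of the 21 changed sign. The 3 that were lost in some fit were TIP4-1 for ABA plus glucose against controls, PIP2-8 for ABA plus glucose against ABA, and the TIP3-1 interaction. With at least 10 counts in every library, TIP1-1 was not tested, so its calls could not be kept there. In that fit 3 members were lower with ABA, against 4, and 2 were lower with both than in controls, against 3. Members higher with ABA plus glucose than in controls numbered 2, and 1 with no filter on low counts, with at least 10 counts in every library, with DESeq2, with only the compared groups in the fit, and without control replicate 1 and ABA replicate 3 together. Without the filter, 5 members were lower in that comparison, against 3. Also without it, 6 were lower with ABA, against 4, and 5 were lower with glucose, against 4. The added calls were of members that failed the filter in the main fit. Members higher with ABA plus glucose than with ABA numbered 1, and 0 with no filter, with at least 10 counts in every library, with only the compared groups, with limma on TPM, and without those 2 libraries together, where 2 were lower. With limma on TPM, 1 member, TIP4-1, was higher with glucose than in controls. With the replicate block, the counts were 1 higher for ABA plus glucose against controls and 0 higher against ABA, and the other 10 counts did not change; the numbers do not pair the libraries, and 3 of 16 libraries correlated best with their own number. As shares of the summed TPM column, the members made up 0.0431% with ABA, 0.0399% with glucose, 0.0429% with both and 0.0480% in controls. Leaving out each library gave 4 to 6 members lower with ABA, 4 to 5 lower with glucose, 1 to 2 higher and 3 to 4 lower with both against controls, 0 to 1 higher and 0 to 2 lower with both against ABA, and 2 to 3 in the interaction. These counts include members that passed the filter only once a library was left out. Where 4 were lower with both than in controls, the added call was such a member, outside the 9 tested with all libraries, and it was not tracked by name. The same fits gave shares of all counts of 0.0412% to 0.0429% with ABA, 0.0375% to 0.0378% with glucose, 0.0410% to 0.0418% with both and 0.0465% to 0.0470% in controls. Beyond the counts, the cause was not tested. Depth limits TIP1-1, TIP4-1 and NIP2-1, which rest on at most 60 counts in a library.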
